A study of Mus musculus with 5 samples.

Results

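The 45 interferon-stimulated genes described here are genes whose transcription is switched on by interferons, taken by gene symbol from 13979 symbols that 3 deposited tables shared. They were chosen by name, with earlier results of these data known. All 45 were found in every table, which write symbols in capitals (IFIT1, OASL2, GBP2, IRGM2) where the mouse spelling is used here. RNA sequencing gave 1 library for each of 5 groups of LLC, the mouse Lewis lung carcinoma line: Control, BMN, PAZA, low-dose BMN/PAZA and high-dose BMN/PAZA. The labels give cells treated for 72 h in culture, whereas the methods describe tumors grown in mice, as set out below. BMN is BMN673, an inhibitor of the DNA repair enzyme PARP, PAZA is a polymer that carries 5-azacytidine (AZA), an inhibitor of DNA methyltransferases, and BMN/PAZA is BMN loaded into that polymer. The labels name a low and a high dose without an amount. Treatment labels set the dose beside BMN, and sample titles set it beside BMN/PAZA. In the text of the study, mice received BMN/PAZA at 0.25 or 2 mg/kg of BMN and of AZA, and the BMN and PAZA treatments set beside the low dose are also given as 0.25 mg/kg. With 1 library per group there was no replicate check, so no test was made and each difference below is a difference between 2 libraries.

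Interferons are secreted proteins that warn cells of viruses and damaged DNA. Type I interferons act through Ifnar1 and Ifnar2 and mainly drive a complex that holds Stat2 and Irf9 and binds the interferon-stimulated response element (ISRE), while interferon gamma acts through Ifngr1 and Ifngr2 and mainly drives genes with a gamma-activated site (GAS). The genes they induce block viral RNA, tag proteins with Isg15 and sense RNA in the cytosol. The families of guanylate-binding proteins and immunity-related GTPases act against intracellular microbes. In tumors the same genes are read as a trace of interferon made by cancer cells or by infiltrating immune cells.

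The promoters show the sequence that these genes share. RefSeq promoters of 300 bases, from 250 before to 50 after the annotated start, were matched to 34 of the 45 members. The ISRE core, written as GAAA followed by any 2 bases and GAAA and searched on both strands, was present in 21 of the 34 members and in 22 of their 40 promoters (55%), compared to 3.44% of all 32851 promoters. The GAS letters TTCNNNGAA, also searched on both strands, were present in 10 of the 34 members and in 10 of the 40 promoters (25%), compared to 8.30% of all promoters. All 4 matched guanylate-binding proteins and all 3 matched immunity-related GTPases held the ISRE core, and 2 of each group also held the GAS letters. Of the other roles, the ISRE core was found in 3 of 4 matched IFIT members, 2 of 4 OAS members, 3 of 9 antiviral effectors, 1 of 2 of the Isg15 system, 1 of 3 transcription factors, 2 of 2 RNA helicase sensors, 0 of 1 of the PARP9 complex and 2 of 2 TRIM members. A match is a description of the letters only. No promoter was matched for Oas2, Mx1, Mx2, Rtp4, Ifi27l2a, Usp18, Dhx58, Parp9, Parp14, Gbp4 and Iigp1.

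The promoters below (GRCm38.p6) belong to the member with the highest Control value in 5 role groups, and capitals mark the ISRE core or its reverse complement. Those of Ifit1 and Gbp2 hold it and those of Oasl2, Herc6 and Irf7 do not, within this window. In Ifit1 the matches began 104 and 85 bases before the start, and in Gbp2 the match began 59 bases before it.
Ifit1 (chr19:34640639-34640938, plus strand): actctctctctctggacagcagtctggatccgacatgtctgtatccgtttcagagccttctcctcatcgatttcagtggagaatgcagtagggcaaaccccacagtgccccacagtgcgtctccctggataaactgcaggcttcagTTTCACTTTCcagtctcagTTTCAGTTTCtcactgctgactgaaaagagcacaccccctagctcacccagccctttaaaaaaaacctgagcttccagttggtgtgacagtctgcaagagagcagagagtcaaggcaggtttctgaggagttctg
Gbp2 (chr3:142620413-142620712, plus strand): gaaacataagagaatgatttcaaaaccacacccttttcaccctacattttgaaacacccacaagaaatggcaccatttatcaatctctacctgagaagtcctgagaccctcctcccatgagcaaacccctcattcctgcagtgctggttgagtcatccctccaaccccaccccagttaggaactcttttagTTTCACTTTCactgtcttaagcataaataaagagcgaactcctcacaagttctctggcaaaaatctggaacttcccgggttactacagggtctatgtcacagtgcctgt
Oasl2 (chr5:114896684-114896983, plus strand): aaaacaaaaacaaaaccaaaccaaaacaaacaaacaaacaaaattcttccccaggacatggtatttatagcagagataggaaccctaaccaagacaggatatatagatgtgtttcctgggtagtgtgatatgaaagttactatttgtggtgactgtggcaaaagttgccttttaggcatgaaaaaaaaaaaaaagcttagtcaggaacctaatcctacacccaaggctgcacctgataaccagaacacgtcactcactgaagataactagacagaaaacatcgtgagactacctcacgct
Herc6 (chr6:57580742-57581041, plus strand): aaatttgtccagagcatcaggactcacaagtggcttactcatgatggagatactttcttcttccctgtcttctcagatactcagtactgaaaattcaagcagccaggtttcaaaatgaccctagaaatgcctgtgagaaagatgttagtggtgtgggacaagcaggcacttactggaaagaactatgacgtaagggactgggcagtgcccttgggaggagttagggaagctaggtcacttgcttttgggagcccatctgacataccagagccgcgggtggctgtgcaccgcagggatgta
Irf7 (chr7:141266375-141266674, minus strand): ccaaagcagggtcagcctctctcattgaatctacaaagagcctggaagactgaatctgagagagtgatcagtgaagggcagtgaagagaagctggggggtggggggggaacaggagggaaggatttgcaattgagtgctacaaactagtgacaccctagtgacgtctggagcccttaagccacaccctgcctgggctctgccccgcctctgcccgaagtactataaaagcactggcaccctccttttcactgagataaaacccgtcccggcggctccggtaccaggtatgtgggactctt

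Many members lie side by side in the genome (GRCm38). Ifit1, Ifit2, Ifit3 and Ifit3b lie within 99.3 kb of chromosome 19 (34550694 to 34650009). Gbp2, Gbp3, Gbp5 and Gbp7 lie within 144 kb of chromosome 3 (142493978 to 142638008). Oas1a, Oas2 and Oas3 lie within 177 kb of chromosome 5 (120730333 to 120907521). Parp9 and Dtx3l lie back to back on chromosome 16, with start sites 681 bases apart on opposite strands, and Parp14 is next to them. Exons of 17 members overlap those of another annotated gene, and for 7 of them (Irf7, Irf9, Parp9, Dtx3l, Gbp4, Igtp and Irgm2) that gene is protein-coding, so reads there may have been shared. Near-identical copies bring the same uncertainty: the transcripts of Ifit3 and Ifit3b were 98.0% identical over their aligned part, and those of Oas1a and its neighbor Oas1g 97.5%.

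The deposited values, whose unit the tables do not name, were read as FPKM, a level per gene length and library (fragments per kilobase of transcript, relative to all mapped fragments). Each library was rescaled here to a sum of 1000000 over the 13979 symbols (scaled FPKM), and fold changes are on the log2(scaled FPKM + 1) scale, which understates the change of weakly expressed genes. Control and PAZA values come from 1 table, BMN and high-dose values from another and low-dose values from another, which were scaled separately by the authors, so a comparison that crosses tables rests on the rescaling. PAZA against Control, high-dose BMN/PAZA against BMN and the 2 doses against each other each lie within a table, where the columns were rescaled as well. The most abundant symbol took between 11.6% and 16.4% of a library's sum. The median change over all symbols was -0.07 for PAZA, 0.09 for BMN, -0.03 for the low dose and -0.17 for the high dose against Control, and these shifts stand beside each result. Read counts are not in the tables used here, so the depth is unknown and no counting interval can be given.

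By the labels the RNA came from LLC cells after 72 h of treatment in culture, whereas the methods describe tumors collected 1 day after the last of 5 injections given every 3 days. Vim and Krt8, which LLC cells express, were detected in all 5 libraries, Krt18 was at 0 in Control and Epcam at 0 in PAZA. All 6 leukocyte markers (Ptprc, Itgb2, Coro1a, Laptm5, Cd53 and Cd52) were detected in every library, with a summed level of 162 scaled FPKM in Control, 209 in PAZA, 221 in BMN, 154 at the low dose and 144 at the high dose. The 8 macrophage and monocyte markers summed to 424, 452, 506, 434 and 341 in the same order, with none at 0. Markers of tissue around a tumor differed far more: the 5 of 6 listed epidermal genes in the tables summed to 67.7, 8.04, 203, 1.92 and 12.7 and the 6 skeletal muscle genes to 7.88, 52.9, 166, 11.2 and 187. The 5 of 6 listed neutrophil genes in the tables summed to 78.8, 128.5, 68.9, 125.7 and 237, the 5 endothelial genes to 35.8, 61.8, 55.4, 42.6 and 42.3 and the 6 dendritic cell genes to 2.74, 4.02, 6.84, 5.33 and 3.40. In bulk RNA, fewer cells of a type and less RNA per cell cannot be told apart, and the part of cell makeup in the results below was not tested.

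Before the results, 1 limit of the tables has to be stated: for 29 of the 45 members the low-dose values differed between the 3 tables that hold that library, and for 27 the PAZA values differed between 2 tables, by factors given further below. Low-dose values are those of the table with the high dose, and the counts and medians of the 45 members and the medians of the role groups against Control are also given with the other tables.

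Most interferon-stimulated genes were lower in PAZA, BMN and high-dose BMN/PAZA than in Control, and with the values used here also at the low dose. Control held the highest of the 5 values for 34 of the 45 members, whereas it held the highest for 20.7% of all symbols, and the high-dose library held the lowest value for 23 members (51.1%), compared to 36.4% of all symbols. With low-dose values from the table with PAZA, Control was highest for 32 members, and with those from the table with BMN for 18. Among the 16 members whose values were the same in every table apart from a constant, it was highest for 13 with any of the 3 tables. Against Control, 38 members were lower in PAZA, 38 in BMN, 39 at the low dose (34 with the table with PAZA and 20 with the table with BMN) and 39 at the high dose, while 56.4%, 40.1%, 52.8% and 64.5% of all symbols were lower. The median log2 fold change of the members was -0.80 in PAZA, -0.39 in BMN, -0.74 at the low dose and -0.83 at the high dose, which is 0.73, 0.49, 0.71 and 0.65 below the median of all symbols. The low-dose median was -0.30 with values from the table with PAZA and 0.070 with those from the table with BMN. The 4 comparisons share the Control library, so they are not independent of each other. With the libraries scaled by their median ratio, no member turned direction in PAZA or BMN, Oas1a turned at the low dose, and Ifi27l2a and Xaf1 turned at the high dose.

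In PAZA, 0 members were higher by 2-fold or more (3.47% of all symbols) and 12 were lower by as much (3.53% of all symbols). As deposited, without the rescaling, 6 were lower. Among the 16 members that were the same in every table apart from a constant, 5 were lower. In BMN, 1 member was higher (4.66% of all symbols) and 9 were lower (2.25%). At the low dose, 0 were higher (3.65%) and 13 were lower (3.54%), compared to 1 higher and 8 lower with the table with PAZA and 6 higher and 9 lower with the table with BMN. At the high dose, 1 was higher (3.2%) and 18 were lower (4.95%). Of the 45 members, 40.0% were past the 2-fold mark downward at the high dose, compared to 26.7% in PAZA, 20.0% in BMN and 28.9% at the low dose. With median-ratio scaling the high dose did not stand apart: 11 members were lower by 2-fold there, compared to 10 in PAZA, 10 in BMN and 12 at the low dose. The 7 members that lost the mark at the high dose were Oasl1, Oasl2, Herc6, Usp18, Parp14, Dtx3l and Irgm1.

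**Figure D1:**
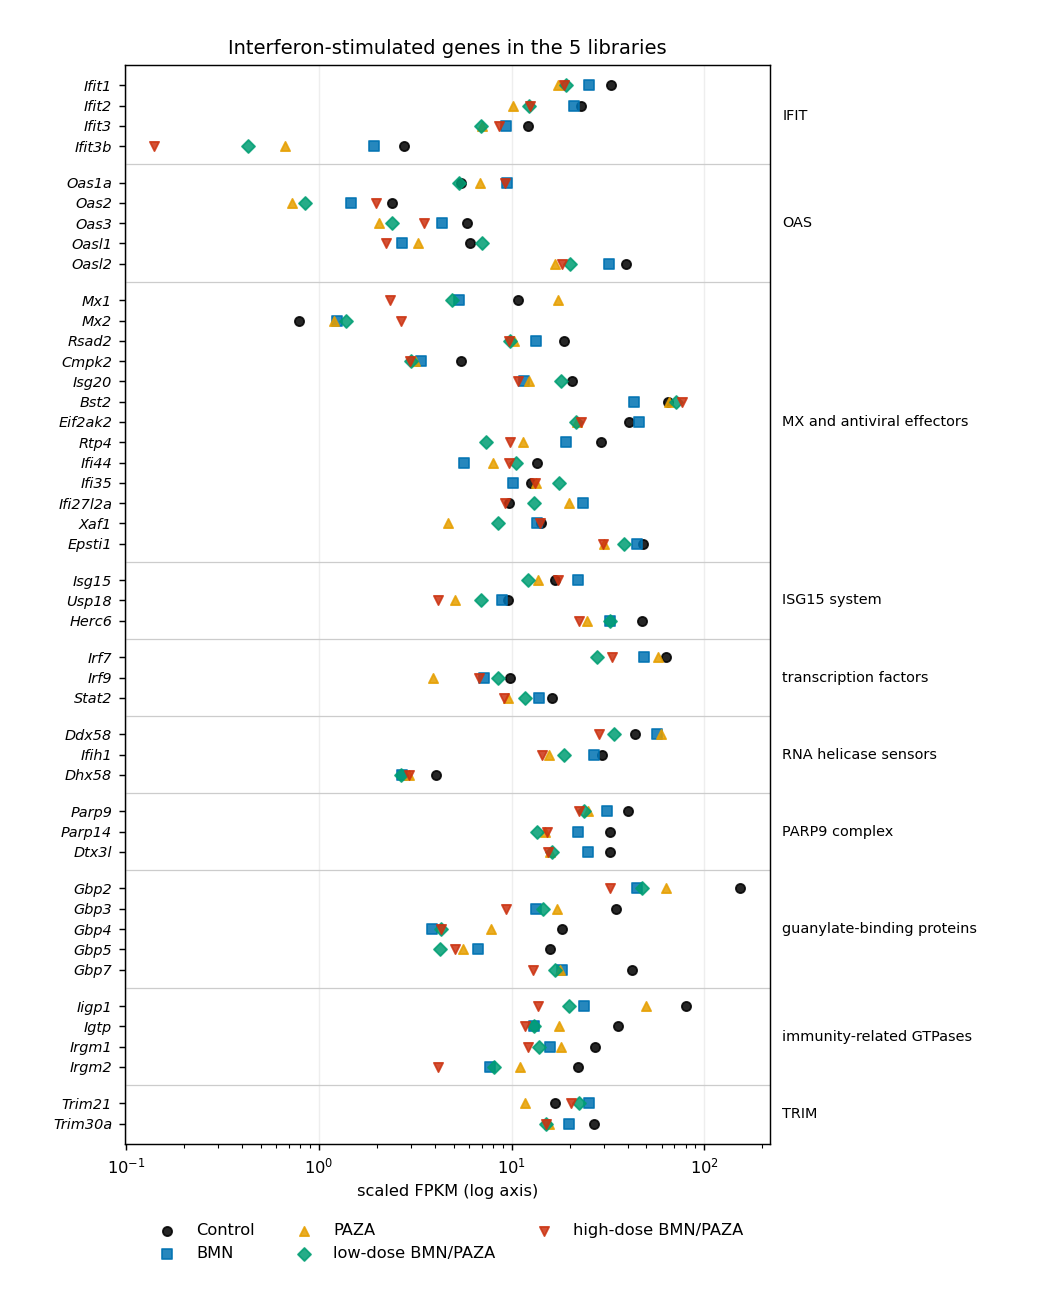
Scaled FPKM of the 45 members (log axis) in the 5 libraries, grouped by role; each point is 1 library. Control (black circles) lies furthest right for 34 members, with low-dose values from the table with the high dose, among them all 9 guanylate-binding proteins and immunity-related GTPases.

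The guanylate-binding proteins, large GTPases that gather on pathogen vacuoles and help start inflammasome signaling, held the most abundant member and lay, together with the immunity-related GTPases, furthest below Control by group median in BMN and at both doses. Gbp2 stood at 154 scaled FPKM in Control, 63.0 in PAZA, 44.8 in BMN, 47.7 at the low dose and 32.3 at the high dose. It was thus the most abundant member in Control, at 2.44 times its next highest library, and its log2 fold change was -1.27 in PAZA, -1.76 in BMN, -1.67 at the low dose and -2.21 at the high dose. Gbp3 had 35.0 scaled FPKM in Control, 17.2 in PAZA, 13.5 in BMN, 14.5 at the low dose and 9.35 at the high dose. Gbp7 had 42.2 scaled FPKM in Control, 17.8 in PAZA, 18.2 in BMN, 16.9 at the low dose and 13.0 at the high dose. In both genes Control lay above all other libraries and the high dose was lowest. Gbp5, which promotes inflammasome assembly, had 15.9 scaled FPKM in Control, 5.60 in PAZA, 6.67 in BMN, 4.26 at the low dose and 5.10 at the high dose. Gbp4 had 18.3 scaled FPKM in Control, 7.82 in PAZA, 3.84 in BMN, 4.30 at the low dose and 4.30 at the high dose, with BMN and not the high dose lowest. The group's median log2 fold change against Control was -1.20 in PAZA, -1.32 in BMN, -1.67 at the low dose and -1.80 at the high dose, and all 5 members passed 2-fold downward in BMN and at both doses, with 4 of 5 in PAZA. With low-dose values from the table with PAZA, 4 of 5 passed at the low dose.

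The immunity-related GTPases, a family that acts against intracellular parasites and bacteria, were also highest in Control, with PAZA nearer to it than in the guanylate-binding proteins. Iigp1 had 80.5 scaled FPKM in Control, 49.7 in PAZA, 23.8 in BMN, 19.8 at the low dose and 13.8 at the high dose, and its log2 fold change of -2.46 at the high dose was the lowest of any member in any comparison with Control. Igtp (also known as Irgm3) had 35.5 scaled FPKM in Control, 17.5 in PAZA, 13.1 in BMN, 13.1 at the low dose and 11.7 at the high dose. Irgm1 had 27.1 scaled FPKM in Control, 17.9 in PAZA, 15.8 in BMN, 13.8 at the low dose and 12.1 at the high dose. In these genes PAZA was the second highest library. Irgm2 had 22.0 scaled FPKM in Control, 11.1 in PAZA, 7.73 in BMN, 8.15 at the low dose and 4.14 at the high dose, again with PAZA second and the high dose lowest. The group median was -0.81 in PAZA, -1.38 in BMN, -1.35 at the low dose and -1.84 at the high dose, with 0, 3, 3 and 4 of 4 members past 2-fold downward (3 of 4 at the high dose with median-ratio scaling). Igtp and Irgm2 overlap each other's exons, so their values may share reads.

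Together these 9 GTPases had medians of -0.98, -1.37, -1.37 and -1.80 in PAZA, BMN, the low dose and the high dose, compared to -0.72, -0.36, -0.65 and -0.77 for the other 36 members. All 9 were lower than Control in every treated library. The summed level of 6 natural killer cell markers was highest in Control. It was 52.0 scaled FPKM in Control, 27.9 in PAZA, 42.6 in BMN, 28.3 at the low dose and 28.2 at the high dose. Of the 6, Klrb1c was at 0 in BMN and at the high dose. All 6 were below Control in PAZA and at both doses, but in BMN Ncr1, Klrk1 and Eomes were above it and the lower sum came from Prf1, Gzma and Klrb1c. Klrk1 and Gzma were off a constant between tables. The 6 T cell markers summed to 9.31, 15.2, 7.50, 7.34 and 3.85 in that order. Ifng, the gene of interferon gamma, was weak. It had 0.244 scaled FPKM in Control, 0.946 in PAZA, 0.599 in BMN, 0.501 at the low dose and 0 at the high dose. The part of natural killer cells, T cells and Ifng in the values of the 9 GTPases was not tested.

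**Figure D2:**
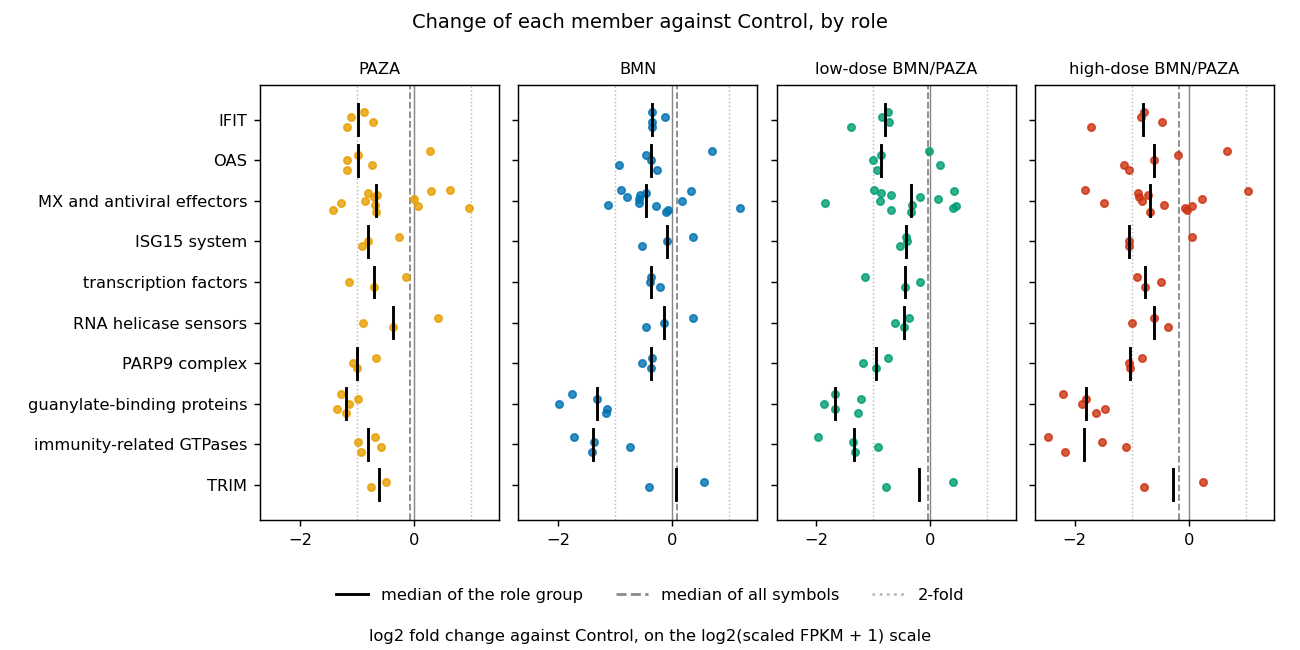
Log2 fold change of each member against Control in 4 treated libraries, by role; points are genes, thick lines the medians of the role groups, the dashed line the median of all symbols and dotted lines 2-fold. The guanylate-binding proteins and immunity-related GTPases lie furthest left at the high dose, at medians of -1.80 and -1.84.

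The IFIT proteins, which bind viral RNA and block its translation, were lower than Control in all 4 treated libraries for all 4 members. Ifit1 had 32.8 scaled FPKM in Control, 17.5 in PAZA, 25.4 in BMN, 19.2 at the low dose and 18.7 at the high dose, and Ifit2 had 23.0 in Control, 10.2 in PAZA, 21.2 in BMN, 12.3 at the low dose and 12.5 at the high dose (scaled FPKM). In both, BMN lay between Control and the 3 libraries with PAZA. Ifit3 had 12.2 scaled FPKM in Control, 7.02 in PAZA, 9.36 in BMN, 6.95 at the low dose and 8.60 at the high dose. Ifit3b was weak, with 2.76 scaled FPKM in Control, 0.672 in PAZA, 1.93 in BMN, 0.427 at the low dose and 0.140 at the high dose, and its reads may be shared with Ifit3. The group median was -0.99 in PAZA, -0.35 in BMN, -0.80 at the low dose and -0.80 at the high dose, so BMN was nearest to Control.

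The OAS family makes short adenylate chains that activate an RNase. Oasl2, the most abundant, had 39.0 scaled FPKM in Control, 16.8 in PAZA, 32.2 in BMN, 20.0 at the low dose and 18.3 at the high dose. Oas3 had 5.89 scaled FPKM in Control, 2.06 in PAZA, 4.33 in BMN, 2.41 at the low dose and 3.52 at the high dose. Both repeated the IFIT order, with Control first and BMN second. Oasl1, which limits Irf7 translation, departed from it with 6.09 scaled FPKM in Control, 3.27 in PAZA, 2.70 in BMN, 6.99 at the low dose and 2.23 at the high dose, so that the low dose was highest and the high dose lowest. Oas1a had 5.45 scaled FPKM in Control, 6.88 in PAZA, 9.45 in BMN, 5.32 at the low dose and 9.24 at the high dose, and Oas2 did not exceed 2.39 in any library. For Oas1a, BMN and the high dose were highest and its log2 fold change was 0.70 in BMN and 0.67 at the high dose. Oas2 was highest in Control and lowest in PAZA at 0.726. The group median was -0.97, -0.37, -0.87 and -0.61 in the same order of comparisons.

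The 13 MX and other antiviral effectors went both ways, with 8 lower than Control in PAZA, 10 in BMN, 9 at the low dose and 10 at the high dose. Rtp4, a receptor transporter protein, had 29.0 scaled FPKM in Control, 11.4 in PAZA, 19.1 in BMN, 7.37 at the low dose and 9.77 at the high dose, with log2 fold changes between -1.84 at the low dose and -0.58 in BMN. Mx1, a GTPase that blocks viral replication, had 10.7 scaled FPKM in Control, 17.3 in PAZA, 5.31 in BMN, 4.92 at the low dose and 2.34 at the high dose. Its highest value was in PAZA and its lowest at the high dose, -1.81 on the log2 scale against Control. With PAZA from the table with the low dose it was 4.72 scaled FPKM in PAZA, below Control by -1.04 on the log2 scale. Ifi44 had 13.5 scaled FPKM in Control, 8.06 in PAZA, 5.68 in BMN, 10.6 at the low dose and 9.73 at the high dose, with BMN lowest. Xaf1, a promoter of apoptosis, had 14.2 scaled FPKM in Control, 4.70 in PAZA, 13.5 in BMN, 8.49 at the low dose and 14.0 at the high dose, with PAZA lowest and the high dose close to Control, though its change in PAZA was -0.74 with the other table, in place of -1.42. Ifi27l2a had 9.68 scaled FPKM in Control, 19.9 in PAZA, 23.6 in BMN, 13.1 at the low dose and 9.21 at the high dose and was the member that passed 2-fold upward in BMN, at 1.20. Mx2 was weak, with 0.786 scaled FPKM in Control, 1.20 in PAZA, 1.24 in BMN, 1.38 at the low dose and 2.67 at the high dose, and was the member that passed 2-fold upward at the high dose. The annotation lists Mx2 as a polymorphic pseudogene. Bst2 (tetherin), which holds budding virus on the cell surface, was the most abundant of the group with 65.1 scaled FPKM in Control, 65.3 in PAZA, 43.4 in BMN, 71.2 at the low dose and 76.5 at the high dose, lowest in BMN.

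With the values used here, the other effectors did not pass 2-fold in any comparison with Control, whereas Cmpk2 was at -1.23 with PAZA from the table with the low dose, and 4 of the 13 effectors were higher by 2-fold with low-dose values from the table with BMN. Rsad2 (viperin), Cmpk2, Isg20 (an exonuclease) and Epsti1 were highest in Control, at 18.6, 5.50, 20.7 and 48.3 scaled FPKM, with log2 fold changes of -0.88, -0.71, -0.87 and -0.68 at the high dose. Eif2ak2 (PKR), the kinase that halts translation on double-stranded RNA, had 40.8 scaled FPKM in Control, 22.0 in PAZA, 46.0 in BMN, 21.6 at the low dose and 22.8 at the high dose, with BMN above Control and the 3 libraries with PAZA together. Ifi35 had 12.6 scaled FPKM in Control, 13.4 in PAZA, 10.2 in BMN, 17.6 at the low dose and 13.2 at the high dose, highest at the low dose. The group median was -0.66, -0.46, -0.33 and -0.68, and with PAZA from the table with the low dose it was -0.39 in PAZA.

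Isg15 is a ubiquitin-like protein, Herc6 the enzyme that attaches it in mice and Usp18 the protease that removes it and also damps interferon receptor signaling. Herc6 had 47.3 scaled FPKM in Control, 24.7 in PAZA, 32.5 in BMN, 32.3 at the low dose and 22.4 at the high dose. Usp18 had 9.63 scaled FPKM in Control, 5.08 in PAZA, 8.96 in BMN, 6.97 at the low dose and 4.15 at the high dose. Both were highest in Control and passed 2-fold downward at the high dose, at -1.05 and -1.05, but not with median-ratio scaling, at -0.81 and -0.84. Isg15 itself had 16.7 scaled FPKM in Control, 13.8 in PAZA, 22.0 in BMN, 12.1 at the low dose and 17.4 at the high dose, highest in BMN and lowest at the low dose, with log2 fold changes from -0.44 to 0.37.

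Among the transcription factors, Irf9 and Stat2 form the complex that reads the ISRE and Irf7 drives type I interferon genes. Irf7 had 62.9 scaled FPKM in Control, 57.4 in PAZA, 48.7 in BMN, 27.9 at the low dose and 33.1 at the high dose. Irf9 had 9.79 scaled FPKM in Control, 3.89 in PAZA, 7.21 in BMN, 8.48 at the low dose and 6.74 at the high dose, with PAZA lowest. Stat2 had 16.3 scaled FPKM in Control, 9.64 in PAZA, 13.9 in BMN, 11.7 at the low dose and 9.13 at the high dose. All 3 were highest in Control, and Irf7 passed 2-fold downward at the low dose and Irf9 in PAZA. The values of all 3 differed between tables, as described below. The PAZA value of Irf9 was 2.08 times as high in the table with the low dose, and with PAZA from that table the group median against Control was -0.24 in place of -0.70, with 0 of 3 members past 2-fold. With low-dose values from either of the other tables, 0 of 3 were lower by 2-fold at the low dose, so Irf7 lost the mark too.

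The RNA helicase sensors Ddx58 (RIG-I) and Ifih1 (MDA5) detect viral RNA and Dhx58 (LGP2) tunes them. Ddx58 had 43.9 scaled FPKM in Control, 59.6 in PAZA, 57.0 in BMN, 33.8 at the low dose and 28.4 at the high dose, higher in BMN and PAZA than in Control. Ifih1 had 29.6 scaled FPKM in Control, 15.6 in PAZA, 26.8 in BMN, 18.8 at the low dose and 14.3 at the high dose, and Dhx58 lay between 2.68 and 4.05 scaled FPKM. Both were highest in Control. In the PARP9 complex, Parp9 and Dtx3l together attach ADP-ribose and ubiquitin and Parp14 is a mono-ADP-ribosyl transferase. Parp9 had 40.1 scaled FPKM in Control, 24.9 in PAZA, 31.1 in BMN, 23.6 at the low dose and 22.3 at the high dose. Parp14 had 32.3 scaled FPKM in Control, 14.9 in PAZA, 22.2 in BMN, 13.6 at the low dose and 15.2 at the high dose. Dtx3l had 32.5 scaled FPKM in Control, 15.8 in PAZA, 24.9 in BMN, 16.3 at the low dose and 15.4 at the high dose. For these genes Control was highest, BMN second and the 3 libraries with PAZA lay together, with group medians of -0.998, -0.37, -0.95 and -1.03. Trim30a had 26.8 scaled FPKM in Control, 15.6 in PAZA, 20.0 in BMN, 15.2 at the low dose and 15.1 at the high dose, in the same order, whereas Trim21, a cytosolic antibody receptor, had 16.8 scaled FPKM in Control, 11.8 in PAZA, 25.3 in BMN, 22.4 at the low dose and 20.3 at the high dose, highest in BMN and lowest in PAZA. With PAZA from the table with the low dose, Trim21 had 21.5 scaled FPKM in PAZA, above Control, and the median of the TRIM members was -0.20 in place of -0.61.

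Each dose of BMN/PAZA was set against BMN. By the doses given above, the low dose differs from BMN in the added PAZA and in that BMN is loaded into it. The high dose holds more BMN as well. These differences cannot be told apart at either dose. At the high dose, within 1 table, 37 of 45 members were lower than in BMN, with a median of -0.42 compared to -0.27 over all symbols, of which 72.0% were lower. Of the members, 0 were higher by 2-fold (2.33% of all symbols) and 2, Ifit3b and Ifi27l2a, were lower (6.89% of all symbols). With 0.1 in place of 1 added to the scaled FPKM, 1 was higher and 6 were lower. With median-ratio scaling the members' median was -0.11, and 10 members turned direction. Ifit3b alone was then lower by 2-fold, and Bst2 was higher at 1.14. Epidermal and fibroblast markers also differed between these libraries, with fibroblast sums of 267 in BMN and 132 at the high dose. All 6 leukocyte and all 8 macrophage and monocyte markers were lower at the high dose, with medians of -0.59 and -0.50. Skeletal muscle and neutrophil markers had medians of 0.30 and 0.17. For the low dose against BMN, epidermal, skeletal muscle and fibroblast markers had medians of -5.40, -3.11 and -1.03, and neutrophil markers 0.12. The part of these cells was not tested. At the low dose, across tables, 33 of 45 were lower than in BMN with a median of -0.32, compared to -0.14 over all symbols, of which 60.7% were lower. With median-ratio scaling the members' median was -0.15, and 6 members turned direction. With low-dose values from the table with BMN it was 0.28, with 14 lower, and with those from the table with PAZA -0.10, with 25 lower. With the values used here 1 member, Oasl1, was higher by 2-fold (3.22% of all symbols) and 3, Ifit3b, Eif2ak2 and Rtp4, were lower (5.86% of all symbols), with 1 lower under median-ratio scaling. With low-dose values from the table with BMN 8 were higher and 1 lower, with those from the table with PAZA 5 and 1, and as deposited in the table of both libraries 11 and 0.

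Against PAZA, the members at the low dose were spread around 0, with 20 higher, 25 lower and a median of -0.04, compared to 0.03 over all symbols. The median was 0.75 with low-dose values from the table with BMN and 0.54 with those from the table with PAZA, with 31 and 30 members higher. With the values used here, 0 members were higher by 2-fold (2.45% of all symbols) and 3, Mx1, Irf7 and Iigp1, were lower (2.78% of all symbols), whereas 15 were higher and 1 lower with the table with BMN and 1 higher and 1 lower with the table with PAZA. All 9 guanylate-binding proteins and immunity-related GTPases were below PAZA, between -1.28 for Iigp1 and -0.08 for Gbp7. Of these, Gbp4 was off a constant, and its log2 fold change was -0.74 here and 1.21 as deposited in the table of both libraries. Comparing the doses within 1 table, 30 members were higher at the low dose than at the high dose and 15 lower, with a median of 0.11, compared to 0.13 over all symbols, of which 65.5% were higher, close to the members' share of 66.7%. The 2 columns of that table have sums of 1917690 and 588275, so this comparison rests on the rescaling: as deposited, the median was 1.68 and 39 of 45 members were higher by 2-fold at the low dose. Here 1 member, Oasl1, was higher by 2-fold (3.38% of all symbols) and 0 were lower (2.34% of all symbols). With median-ratio scaling the median of the members was -0.02, and 20 were higher. With low-dose values from the tables with BMN and with PAZA it was 0.78 and 0.45. The immunity-related GTPases were higher at the low dose for 4 of 4 members under both scalings, with a median of 0.34 as scaled here and 0.20 with median ratios.

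The low-dose library is held by 3 tables and the PAZA library by 2, and their values for many members were not the same. For almost all symbols the values of a library in 2 tables differed by a constant, and a symbol more than 0.5% off that constant was counted. The BMN and high-dose values of all 45 members were equal in both tables that hold them. The low-dose values were off the constant for 29 of 45 members in the table with BMN (2.44% of all symbols) and for 29 in the table with PAZA (1.45% of all symbols), each against the table with the high dose. The PAZA values were off it for 27 of 45 members between the tables with Control and with the low dose (1.92% of all symbols). The other 16 members were on every constant, among them 4 of 4 immunity-related GTPases, 4 of 5 guanylate-binding proteins, 3 of 5 OAS members and 2 of 3 of the PARP9 complex, but only 1 of 13 antiviral effectors and 0 of 9 members of the Isg15 system, transcription factors and RNA helicase sensors.

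The factors between these values were few. In the table with BMN, the low-dose value was 2 times that in the table with the high dose for 26 members, within 0.1%. It was 3.5 times as high for Irf7 and Ddx58 and 5.73 times for Cmpk2. In the table with PAZA, 26 members had a PAZA value equal to the low-dose value of the table with the high dose, and a low-dose value equal to 1.5 times the PAZA value of the table with Control, within 0.05% after the constants. This exchange of the 2 columns was found for 169 of 13142 symbols (1.29%), of which 143 are no members. Mx1 shows it most: its low-dose value was 5.74 FPKM in the table with BMN, where 2.87 would lie on the constant, and 15.2 in the table with PAZA, where its PAZA value was 2.74. The PAZA value of Mx1 in the table with Control was 9.99 FPKM.

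The member furthest off in its role group was Cmpk2 among the antiviral effectors, Irf7 and Ddx58 among the transcription factors and helicase sensors, and Gbp4 among the guanylate-binding proteins, at 2.86 times in the table with PAZA. Parp14 and Trim21 were the single members off in their groups. Among the IFIT, OAS and Isg15 groups every member off the constant stood at 2 times in the table with BMN, and Ifit3 (1.59 times), Oas2 (1.35 times) and Isg15 (1.78 times) were furthest off in the table with PAZA. Irf7, Ddx58 and Cmpk2 were the 3 members off a constant that were not exchanged. The PAZA values of Irf7 and Ddx58 in the table with Control had more than 6 significant digits, unlike the other members, and 6 after division by 1.5. Divided so, they would be 38.3 and 39.8 scaled FPKM and -0.70 and -0.14 against Control in place of -0.13 and 0.43, so the value of Ddx58 above Control in PAZA rests on this factor. For Cmpk2, the low-dose value in the table with the high dose equalled its BMN value of 1.76 FPKM after the constant. Which of the values was measured cannot be told from the tables.

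**Figure D3:**
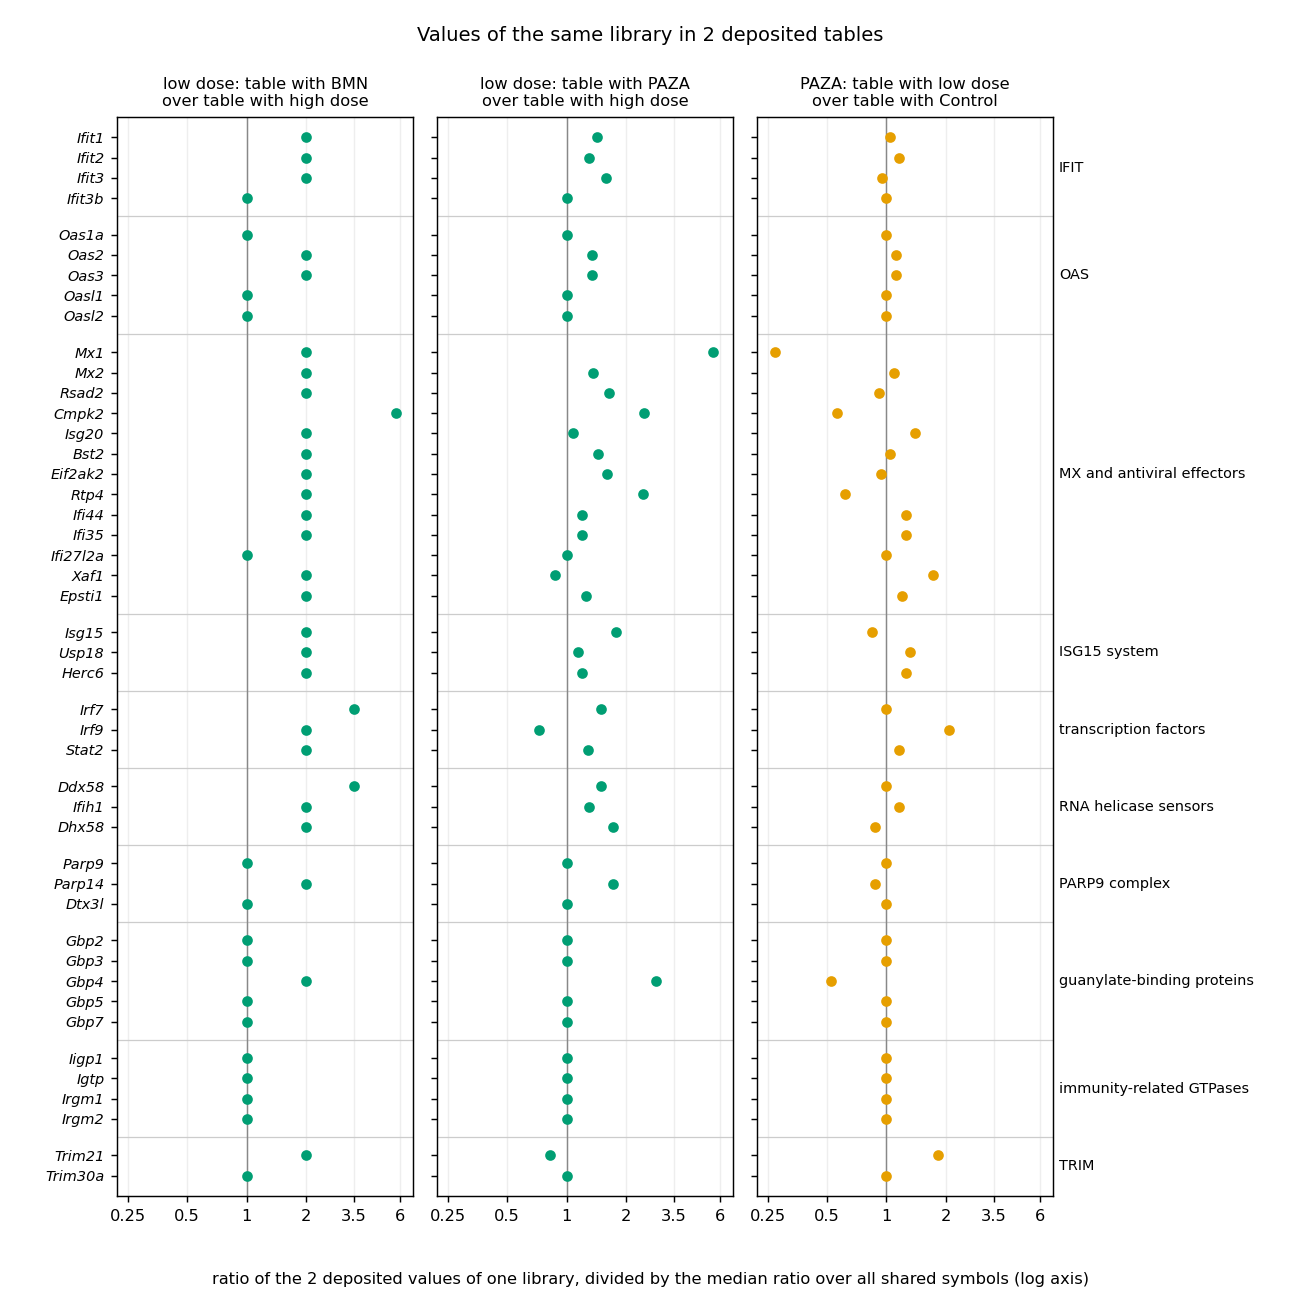
Ratio of the values of a library in 2 deposited tables for each member, divided by the median ratio over all shared symbols (log axis), for the low-dose library (left and middle) and PAZA (right). Points at 1 are on the constant; 26 members stand at 2 in the left panel, and the immunity-related GTPases stand at 1 in all 3.

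The direction of many members at the low dose depended on the table. Taken as deposited in the table of BMN and the low dose, 34 of 45 members were higher at the low dose than in BMN, compared to 12 with the values of the table with the high dose, and 22 members changed direction. The 29 members off a constant had a median of 0.78 there, with 28 higher, and -0.32 with 7 higher by the other values. The 16 members on every constant had -0.15 with 6 higher, and -0.31 with 5 higher. As deposited in the table of PAZA and the low dose, 26 of 45 members were higher at the low dose, and 14 changed direction. Of the 26 exchanged members, 23 were higher there and 17 by the values used here.

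Against Control, the group medians of the guanylate-binding proteins (-1.29 with either of the other tables), the immunity-related GTPases (-1.37 with either), the OAS family (-0.26 and -0.67) and the PARP9 complex (-0.76 with either) stayed below 0 with low-dose values from the table with BMN or with PAZA. With those from the table with BMN, the median was 0.11 for the IFIT members, 0.59 for the antiviral effectors, 0.47 for the Isg15 system, 0.60 for the transcription factors, 0.31 for the helicase sensors and 0.27 for the TRIM members. With those from the table with PAZA, it was -0.39 for the IFIT members, -0.04 for the antiviral effectors, -0.26 for the Isg15 system, -0.60 for the transcription factors, 0.13 for the helicase sensors and -0.35 for the TRIM members. With PAZA from the table with the low dose, Mx1 and Trim21 turned direction against Control, Ifit2, Xaf1 and Irf9 were no longer lower by 2-fold, Mx1 and Cmpk2 became so, and the median of the Isg15 system was -0.49 in place of -0.81. For the 16 members on every constant, the medians against Control were -0.95 in PAZA, -0.84 in BMN, -1.08 at the low dose and -1.30 at the high dose.

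**Figure D4:**
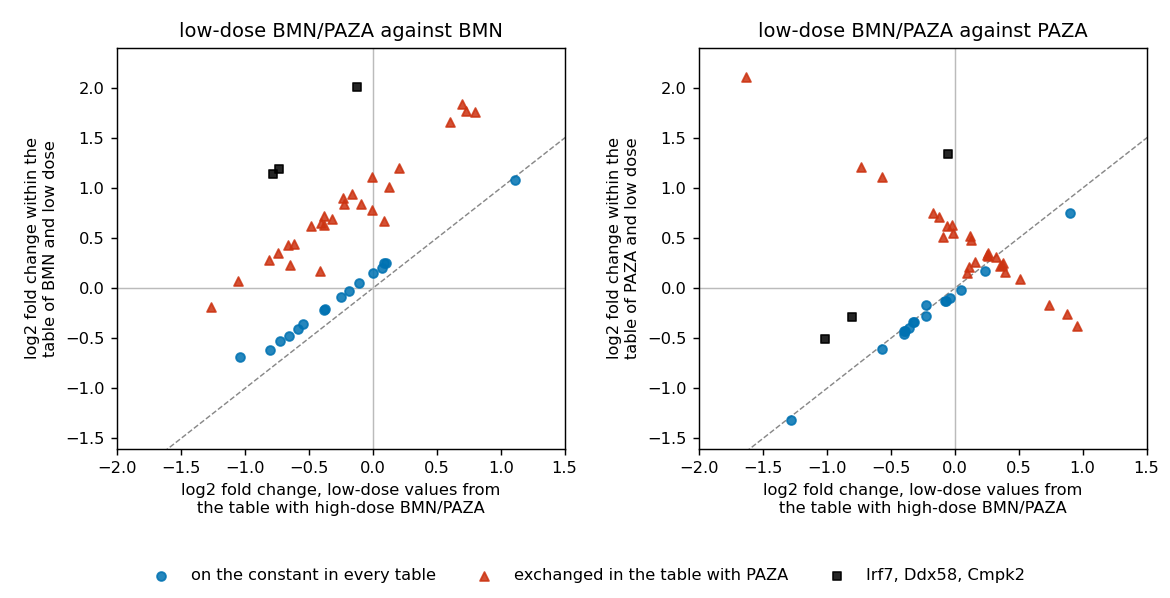
Log2 fold change of each member at the low dose against BMN (left) and PAZA (right), with the scaled values used here (x axis) and as deposited in the table of the 2 libraries (y axis); the dashed line marks equal values. Members on the constant in every table (blue circles) lie near the line in the right panel and mostly above it in the left. Their medians in the left panel are -0.31 on the x axis and -0.15 on the y axis. In that panel 28 of the 29 others lie above 0 on the y axis.

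The rest of the pathway was taken from lists by role. Of 21 interferon genes listed as ligands, 19 were at 0 in both libraries of the largest table (BMN and the low dose), and Ifnb1 was above 0 there in BMN, at 0.369 FPKM, and listed at 0 at the low dose. In the other tables Ifna4 stood at 0.359 FPKM in Control and was listed at 0 in PAZA, and Ifna13 and Ifnz stood at 0.683 and 0.116 FPKM at the high dose. Ifng, the gene of interferon gamma, was the one ligand in all tables and was weak, with 0.244 scaled FPKM in Control, 0.946 in PAZA, 0.599 in BMN, 0.501 at the low dose and 0 at the high dose. It was thus above Control in 3 of 4 treated libraries. The 6 receptor genes were higher than Control for 5 in PAZA, 6 in BMN, 5 at the low dose and 6 at the high dose, with 0 past 2-fold. Of all symbols, 43.6%, 59.9%, 47.2% and 35.5% were higher. Ifnar1 had 26.6 scaled FPKM in Control, 33.8 in PAZA, 29.4 in BMN, 36.1 at the low dose and 31.1 at the high dose. Ifngr1 had 14.8 scaled FPKM in Control, 17.8 in PAZA, 17.7 in BMN, 21.7 at the low dose and 15.0 at the high dose. Neither was lower than Control in any treated library.

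Of 14 signaling genes, 7, 5, 10 and 13 were lower than Control in PAZA, BMN, the low dose and the high dose. Of all symbols, 56.4%, 40.1%, 52.8% and 64.5% were lower. Irf1, which interferon gamma induces strongly, had 198 scaled FPKM in Control, 79.1 in PAZA, 94.6 in BMN, 81.6 at the low dose and 85.1 at the high dose. It was highest in Control, but 11 of the 14 signaling genes, Irf1 included, were off a constant between tables. Irf3, the factor that STING and RIG-I signaling activate, had 8.82 scaled FPKM in Control, 20.7 in PAZA, 8.35 in BMN, 17.8 at the low dose and 18.8 at the high dose, above Control wherever PAZA was given, and its low-dose value in the table with BMN was 1.75 times as high.

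Of 49 other interferon-stimulated genes in the tables, 35, 34, 41 and 37 were lower than Control, with medians of -0.42, -0.25, -0.41 and -0.49 in PAZA, BMN, the low dose and the high dose. The shares of all symbols that were lower were 56.4%, 40.1%, 52.8% and 64.5%. Lower by 2-fold were 7, 6, 11 and 12 (3.53%, 2.25%, 3.54% and 4.95% of all symbols). Higher by as much were 2, 0, 1 and 1 (3.47%, 4.66%, 3.65% and 3.2% of all symbols). The low-dose counts rest on the values used here. The chemokine Cxcl9, which draws T cells and is induced by interferon gamma, had 80.5 scaled FPKM in Control, 36.8 in PAZA, 17.6 in BMN, 10.5 at the low dose and 12.9 at the high dose. Nlrc5, the activator of MHC class I genes, had 64.6 scaled FPKM in Control, 25.8 in PAZA, 40.2 in BMN, 28.2 at the low dose and 17.7 at the high dose. Their log2 fold changes at the high dose were -2.55 and -1.81, and both were among the 24 of these 49 genes off a constant between tables.

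Most genes of the same 2 GTPase families that are not among the 45 lay on the same side. The exception was Gbp10, which was weak in every library, with log2 fold changes of 0.22 in PAZA, 0.09 in BMN, -0.17 at the low dose and 0.09 at the high dose. Gbp6 had 15.5 scaled FPKM in Control, 6.04 in PAZA, 5.16 in BMN, 3.93 at the low dose and 4.09 at the high dose. Gbp8 and Gbp9 had log2 fold changes of -2.09 and -1.46 at the high dose and -0.67 and -0.75 in PAZA. Exons of both overlap those of the member Gbp4 on the same strand, so reads may be shared. Tgtp1, Tgtp2 and Ifi47, further immunity-related GTPases, had -1.85, -2.15 and -1.14 at the high dose and -1.58, -1.40 and -0.78 in BMN. Gbp6, Gbp8, Gbp9, Tgtp1, Tgtp2 and Ifi47 were lower than Control in every treated library, and 5 of them, all but Gbp6, were on every constant. Phf11b, Slfn8 and Sp110 were also lower, at -1.06, -1.17 and -0.61 at the low dose. Of these, Sp110 was off a constant, with a low-dose value 2 times as high in the table with BMN, which lies above Control. Ifitm1, a membrane protein that blocks viral entry, and Oas1g were the genes among these 49 that passed 2-fold upward more than once, past it in PAZA and at 1 dose each. Ifitm1 had 3.29 scaled FPKM in Control, 12.5 in PAZA, 4.16 in BMN, 5.24 at the low dose and 11.4 at the high dose, and Oas1g, which was weak, had 0.384 in Control, 2.76 in PAZA, 1.10 in BMN, 1.78 at the low dose and 1.16 at the high dose.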

How the data were processed

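RNA sequencing of 5 groups gave 1 library each. Per the submitters' processing notes, the authors used HISAT2 and StringTie with GRCm38, without versions, and no counts are in the 5 deposited tables, each of which holds 2 groups. The deposited values, read as FPKM from their form, were scaled by the authors to gene length and library before deposit, and the depth behind them is unknown. In the table of both doses the low-dose column sums to 1917690 and the high-dose column to 588275. Control and PAZA came from their common table, BMN and high dose from theirs and low dose from the table with the high dose. Here each column was scaled to a sum of 1000000 over 13979 shared symbols, with the row of the highest mean for repeated symbols. Fold changes were log2 with a pseudocount of 1, and 2-fold was the mark. Symbols at 0 in both libraries were left out. Values of 1 library in 2 tables were divided, and symbols over 0.5% from the median ratio were counted. There was no replicate, so nothing was tested. The members, roles, marker and pathway lists were chosen with earlier results of these data known. All members are accounted for by role. Libraries are printed for members past 2-fold against Control and the most abundant of each role, and pathway genes are named where past 2-fold in at least 2 comparisons with Control or set by name. A gene of the signaling list is not reported here and was left out of its counts. Gene positions came from GENCODE M21 and promoters from RefSeq (GRCm38.p6). Both steps were checked on simulated data with 200 changed genes. Alternatives were another pseudocount, scaling, filter, treatment of repeated symbols and table, and leaving out members off a constant. Software was Python 3.11.15, with pandas 2.3.3, numpy 2.4.6, matplotlib 3.10.9 and Biopython 1.88.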

Additional observations from a re-analysis of the deposited data

How the results depend on the processing

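No paired analysis was possible because each group has 1 library. For the 8 comparisons and the count of members off a constant, 119 of 169 alternative values stayed close to those reported, the others are given here, and for those the cause was not tested. The table of the low dose mattered most, by the 2, 3.5 and 1.5 times described above. With the low dose from the table with BMN, the members' median against Control was 0.070, with 6 higher by 2-fold; against BMN 0.28, with 8 higher and 1 lower; against PAZA 0.75, with 15 higher and 1 lower; and against the high dose 0.78, with 15 higher. With the low dose from the table with PAZA, the median against Control was -0.30, with 1 higher and 8 lower; against BMN 5 were higher and 1 lower; against PAZA the median was 0.54, with 1 higher and 1 lower; and against the high dose 0.45, with 4 higher. As deposited, PAZA had 6 members lower than Control, the low dose had a median of 0.44 against BMN with 11 higher and 0 lower, 4 higher and 1 lower than PAZA, and a median of 1.68 against the high dose with 39 higher, and the high dose had 1 lower than BMN. With the exchanged members put back, chosen after seeing the data, 1 was higher at the low dose than in PAZA. Without the 29 members off a constant, PAZA had 5 lower than Control, BMN had a median of -0.84, the low dose -1.08 with 8 lower, and the high dose -1.30 with 0 higher; the low dose had 1 lower than BMN and 1 lower than PAZA. With median-ratio scaling, 1 was higher in PAZA and 11 lower at the high dose than in Control, 1 lower at the low dose than in BMN, and the high dose had a median of -0.11 against BMN with 1 higher and 1 lower. With a pseudocount of 0.1, 1 was higher in PAZA than in Control, 2 higher at the low dose than in PAZA, 1 higher and 6 lower at the high dose than in BMN, and 3 higher and 1 lower at the low than at the high dose. The count of members highest in Control under each low-dose table was also chosen after seeing the data. Depth is unknown, so weak members such as Ifit3b, Mx2 and Oas2 are the least certain.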
